A study of Mus musculus with 20 samples.

Results

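The mRNA levels of 10 regulators of mitochondrial biogenesis were read in the liver and kidney of mice treated with the 7c cocktail or vehicle. The members were chosen by name, as genes known to control the number, the DNA or the uncoupling of mitochondria, and all 10 were found among the 57010 genes of the count table: Ppargc1a, Ppargc1b, Perm1, Nrf1, Gabpa, Esrra, Tfam, Tfb2m, Polg and Ucp2. Libraries of polyadenylated RNA came from 10 male UM-HET3 mice that were 12 months old, of which 6 received 7c (the groups 7c liver and 7c kidney) and 4 received vehicle (vehicle liver and vehicle kidney). In the 7c group, forskolin, repsox, TTNPB, CHIR99021, DZNep and tranylcypromine were each delivered at 0.1 mg/kg/day and valproate at 1 mg/kg/day, over 28 days. Mice of both groups carried a subcutaneous osmotic minipump filled with 50% DMSO and 50% PEG300, and were housed singly after the implantation. UM-HET3 mice are a genetically heterogeneous stock, in which every animal has its own mixture of founder alleles, so that the spread between replicates holds genetic as well as technical differences. One library was made per mouse and tissue.

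Mitochondria hold their own small DNA, which encodes a few subunits of the respiratory chain, while all other mitochondrial proteins come from nuclear genes. PGC-1 coactivators, the products of Ppargc1a and Ppargc1b, bind transcription factors such as NRF1, GABPA and the estrogen-related receptor ERR alpha (Esrra), and these factors drive nuclear genes of respiration and of mitochondrial DNA upkeep. Perm1 is a regulator of the same program that is known from skeletal muscle and heart. TFAM packages mitochondrial DNA and bends its promoters, TFB2M opens these promoters for the mitochondrial RNA polymerase, and POLG copies the DNA. UCP2 is a carrier of the inner mitochondrial membrane that is related to the uncoupling protein of brown fat.

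The DNA around the start of the canonical transcript of each gene was searched for letters that NRF1, GABPA and ERR factors are known to bind. These factors are, or include, products of members. The search also covered the cAMP response element (CRE), which is bound by CREB and related factors and by none of the members. Windows of 300 bases, 250 before and 50 after the start of the Ensembl canonical transcript, were read from GRCm39 on both strands for GCGCATGC (NRF1), CCGGAAG (GABPA and other ETS factors), AAGGTCA (ERR factors) and TGACGTCA (CRE). Of 21770 windows of protein-coding genes, 3.68% held the NRF1 letters, 10.3% the ETS letters, 4.48% the ERR letters and 2.44% the CRE letters. Among the members, 4 of 10 windows held a match, each for a different 1 of the 4 sets of letters. The share of all windows with any of the 4 sets was not counted, so 4 of 10 has no background to be set against. Each match is shown 5′ to 3′ on the strand of its gene with the matched letters in capitals. In Perm1, Esrra and Gabpa the capitals are the reverse complement of the letters searched. For Perm1, 200 bases before the start are given (chr4:156300125-156300324, plus strand), where the ERR letters lie at -143. The canonical transcripts of the other 3 genes start inside the annotated gene, so their matches lie within its span. Only the 30 bases around these matches are given. They are the CRE letters at -83 of Ppargc1a (chr5:51711329-51711358, minus strand), the NRF1 letters at -25 of Esrra (chr19:6899192-6899221, minus strand), and the ETS letters at -185 and -13 of Gabpa (chr16:84631735-84631764 and chr16:84631907-84631936, plus strand).
Perm1: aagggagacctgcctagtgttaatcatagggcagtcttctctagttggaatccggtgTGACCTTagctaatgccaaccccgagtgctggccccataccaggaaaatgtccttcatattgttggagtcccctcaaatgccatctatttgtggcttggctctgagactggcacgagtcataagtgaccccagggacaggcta
Ppargc1a: ctgccttggagTGACGTCAggagtttgtgc
Esrra: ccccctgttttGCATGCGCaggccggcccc
Gabpa, upstream match: gccaccgttctaCTTCCGGccctggctccg
Gabpa, match at the start: ggagggtaagtgCTTCCGGgtccctcagct
Such a match describes letters only and is not a measured binding site, and the members without a match may be bound through other letters or elsewhere.

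Library totals lay between 28383359 and 34153084 counts in liver and between 27855849 and 64872451 in kidney, with every vehicle liver above every 7c liver. Each tissue carried its own markers, since 5 hepatocyte genes summed to at least 65982 CPM, that is counts scaled to a common library size, in every liver and 4 proximal tubule genes to at least 8427 CPM in every kidney. Some libraries stood apart. The liver of 7c replicate 6 had 731 CPM of 8 skeletal muscle transcripts, against 0.590 CPM in the lowest 7c liver and at most 1.51 CPM in vehicle livers. The kidneys of 7c replicates 1, 4 and 5 had 444, 1229 and 567 counts of Ucp1, the defining transcript of brown fat, which had at most 2 counts in every other library. Over 4 brown fat genes these kidneys summed to 22.02, 56.9 and 39.4 CPM, the other 7c kidneys to at most 7.17 CPM and vehicle kidneys to between 5.24 and 16.1 CPM. White adipocyte transcripts (6 genes) summed to between 51.1 and 140 CPM in 7c kidneys and between 35.04 and 49.6 CPM in vehicle kidneys, and all 6 genes were higher with 7c at an unadjusted p under 0.05, which 2.61% of all genes had in kidney. In the same kidneys 3 of 5 hepatocyte genes were lower with 7c at such a p (median log2 fold change -1.08), and 4 of 4 erythroid genes lay above 0 (0.77 to 0.94), none at such a p. In bulk tissue, fewer cells of a type and less RNA per cell cannot be told apart.

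In vehicle mice, most members differed between liver and kidney in the main fit, and some of these calls depended on how the libraries were scaled. Ppargc1a, Esrra and Ucp2 were higher in kidney, and Gabpa was higher in liver, beyond the spread between replicates and under every scaling tried. Levels were compared between genes as TPM, a share of transcripts that divides counts by the length of a gene's exons. In the 4 vehicle livers, Ppargc1a, the coactivator that responds to cold, fasting and exercise, had 2.45, 4.46, 3.31 and 3.30 TPM, and in the 4 vehicle kidneys 22.7, 15.7, 24.5 and 17.996 TPM. The lowest kidney was above the highest liver. Liver against kidney, edgeR gave -2.11 on the log2 scale (standard error 0.190), with an adjusted p = 3.38e-06. The test was edgeR's quasi-likelihood test with Benjamini-Hochberg adjustment over 17245 genes. This and the fold changes between tissues below were fitted to counts scaled between libraries, so they differ in size from ratios of the TPM values. The gene lies on chromosome 5 (GRCm39, 51611592 to 51725068, minus strand).

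Esrra (chromosome 19, 6888338 to 6899336) encodes the nuclear receptor through which PGC-1 alpha reaches many respiratory genes. It had 17.2, 21.2, 30.8 and 31.2 TPM in the vehicle livers and 78.4, 68.4, 80.7 and 108 TPM in the vehicle kidneys. The groups did not overlap, with -1.28 on the log2 scale, liver against kidney (standard error 0.185), and an adjusted p = 0.000143 from edgeR. Ucp2 (chromosome 7, 100142055 to 100151227) had 7.47, 9.73, 7.499 and 12.6 TPM in the vehicle livers and 41.6, 60.8, 39.8 and 57.4 TPM in the vehicle kidneys. This gap was wider than for Esrra, at -1.98 on the log2 scale (standard error 0.243), with an adjusted p = 3.88e-05 from edgeR.

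Perm1 (chromosome 4, 156300325 to 156314305) was close to absent from vehicle livers, where its counts were 6, 6, 0 and 0, too few for a fold change. In the vehicle kidneys it had 305, 364, 230 and 218 counts, or 5.46 ± 0.575 TPM (SD, n = 4). It entered the comparison of tissues only through its kidney counts, so that it had to differ (adjusted p = 4.26e-05 from edgeR).

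Gabpa (chromosome 16, 84631140 to 84660672), the DNA-binding subunit of the ETS factor GABP, went the other way. It had 16.7, 17.6, 19.0 and 22.3 TPM in the vehicle livers and 12.8, 7.31, 14.4 and 10.5 TPM in the vehicle kidneys, with no overlap. On the log2 scale liver was higher by 1.24 (standard error 0.160), with an adjusted p = 6.16e-05 from edgeR. This fold change ranged from 0.63 to 1.34 over the alternative fits. In total, 6 of the 9 members other than Perm1 were past the threshold of 0.05, 3 in each direction. Among all genes tested, 53.4% were past it, 25.7% higher in liver and 27.7% higher in kidney, so this share of members is near that of the other genes. Of these 9 members all except Nrf1 had groups that did not overlap in scaled CPM, beside 53.2% of all genes.

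The remaining members depended on how the libraries of the tissues were scaled. Without edgeR's TMM scaling factors, that is with CPM from library totals alone, the log2 fold changes of all genes moved by a median of -0.60. Tfam (chromosome 10, 71061287 to 71074110) was higher in liver with TMM (log2 fold change 0.64, adjusted p = 0.000867, edgeR) and not called without the factors (0.024). Polg (chromosome 7, 79095974 to 79116110) was called with TMM (0.54, adjusted p = 0.0274, edgeR) and turned to -0.086 without the factors. For Polg, RLE size factors (adjusted p = 0.0515) and leaving out 1 of 3 vehicle mice (replicates 1, 2 or 3) also lifted the edgeR value above the threshold, as did a block on replicate number across the tissues (adjusted p = 0.0531). Ppargc1b (chromosome 18, 61431195 to 61533735), the coactivator paralog of Ppargc1a, had a log2 fold change of -0.72 (adjusted p = 0.0739, edgeR), and of -1.30 (adjusted p = 0.00521) without the factors. Nrf1 (chromosome 6, 30047892 to 30153462) and Tfb2m (chromosome 1, 179355610 to 179374548) had log2 fold changes of 0.23 and 0.40 that were not past the threshold (edgeR adjusted p = 0.270 and 0.0513). Their direction turned without the factors, to -0.37 and -0.22.

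Within vehicle kidney, the order of the mean levels, with the length of all exons, was Esrra (83.9 TPM), Ucp2 (49.9), Tfam (34.01), Ppargc1a (20.2), Tfb2m (17.7), Polg (12.3), Gabpa (11.3), Perm1 (5.46), Nrf1 (4.83) and Ppargc1b (3.62). The 3 highest members did not overlap with their neighbours, whereas Ppargc1a overlapped with Tfb2m, Tfb2m with Polg, Polg with Gabpa, Perm1 with Nrf1 and Nrf1 with Ppargc1b. Gabpa and Perm1 did not overlap. Within vehicle liver, with the same lengths, Tfam led with 37.7 ± 0.889 TPM (SD, n = 4), above every library of Esrra (25.1 TPM on average). Gabpa had 18.9 TPM, Tfb2m 16.5, Polg 12.6, Ucp2 9.34, Nrf1 4.08, Ppargc1a 3.38, Ppargc1b 1.61 and Perm1 0.0698 TPM. In liver, the ranges of Esrra and Gabpa, Gabpa and Tfb2m, Polg and Ucp2, and Nrf1 and Ppargc1a overlapped, and those of the other neighbours did not. These orders depended on the length used. With the longest transcript in place of all exons, Esrra (36.4 TPM) was above Tfam (31.9 TPM) on average in vehicle liver, and Tfb2m (18.01 TPM) above Ppargc1a (16.4 TPM) in vehicle kidney. Esrra then had 128 TPM in vehicle kidney, and Nrf1, at 10.2 TPM there, was above Perm1 (4.61 TPM).

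**Figure D1:**
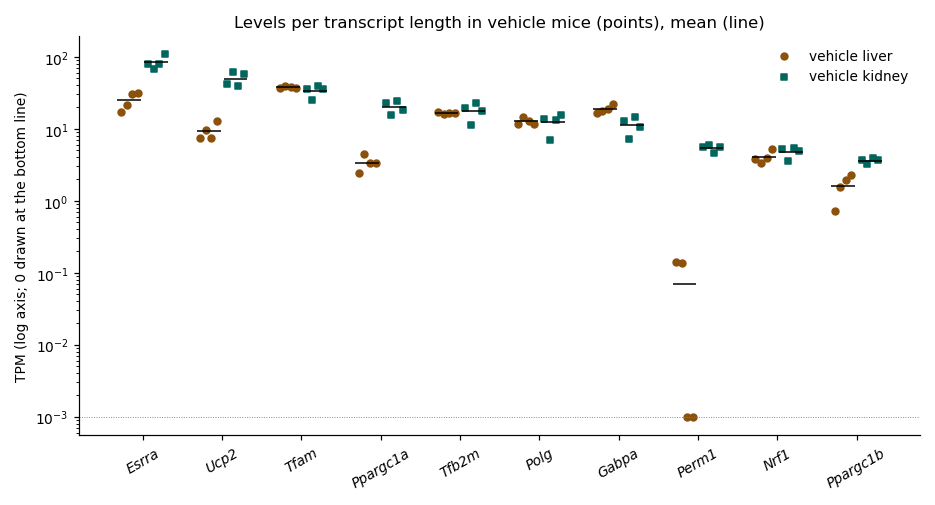
TPM on a log axis for each member in the 4 vehicle livers (circles) and 4 vehicle kidneys (squares), with a black line at the mean and libraries without a count drawn on the dotted line at the bottom. The kidney points of Ppargc1a, Esrra and Ucp2 lie above all liver points, those of Gabpa lie below them, and Perm1 has 2 livers at 0.

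Other genes of the pathway, from lists fixed by function, were read in the same comparison, where the counts of calls depended on the scaling. Beside the 25.7% of all genes called higher in liver and the 27.7% called higher in kidney with TMM, the shares without the factors were 13.9% and 47.3%. Of 12 transcription factors, 5 were called higher in liver and 3 higher in kidney, and without the TMM factors 1 and 3. Esrrb and Esrrg, the other two members of the estrogen-related receptor family, were higher in kidney (log2 fold change -3.24 and -2.95, edgeR adjusted p = 3.73e-07 and 3.97e-06). Ppara, the fatty acid receptor that uses PGC-1 alpha as coactivator, was higher in liver (2.41, adjusted p = 3.60e-06 from edgeR), as was Gabpb2, a partner subunit of GABPA (1.14, adjusted p = 0.000365 from edgeR), whose call was lost without the factors (0.53). Of 11 other coactivators, corepressors and kinases, Prkaa2, a catalytic subunit of AMP-activated kinase, was the one called with TMM, and it was lower in liver (-0.78, adjusted p = 0.00363 from edgeR). Without the factors 7 of the 11 were called lower in liver.

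For the upkeep of mitochondrial DNA, 6 of 16 genes were higher in liver and 1 was lower, and without the factors 1 was higher and 3 were lower, with 10 of 16 signs turned. The helicase and nuclease gene Dna2 (1.62, edgeR adjusted p = 8.43e-06) and Polg2, the accessory subunit of the polymerase (1.00, adjusted p = 0.00106 by edgeR), were the largest in liver, and Polg2 was not called without the factors (0.40). Rrm2b, which supplies deoxynucleotides, was higher in kidney (-1.998, edgeR adjusted p = 0.000529). Of 9 tested genes of mitochondrial transcription, Tfb1m (0.83) and Lrpprc (0.68) were higher in liver and Polrmt, the mitochondrial RNA polymerase, was higher in kidney (-0.90, edgeR adjusted p = 0.00151). Without the TMM factors 0 of these 9 genes were called higher in liver.

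Of 19 nuclear target genes, 8 were higher in kidney and 2 in liver, and without the factors 16 and 0. Among those higher in kidney was Idh3a of the citric acid cycle at -1.42 (edgeR adjusted p = 4.22e-06). Tomm70a, an import receptor, was at 0.66, and Sdhd, a membrane subunit of complex II, at 0.42. Sdhd turned to -0.18 without the factors. Of the 13 mRNAs of mitochondrial DNA, 7 were higher in kidney (10 without the factors) and 0 in liver, led by mt-Co2 (-1.64, adjusted p = 4.37e-05 by edgeR) and mt-Atp6 (-1.50, adjusted p = 0.00131 by edgeR). Among the carriers related to UCP2, Slc25a4, which exchanges ATP and ADP across the inner membrane, was higher in kidney (-4.73, adjusted p = 2.52e-08 from edgeR), as was Slc25a30 (-1.54). Slc25a13, the liver aspartate and glutamate carrier, was higher in liver (1.79, adjusted p = 2.17e-06 from edgeR). The medians of these lists lay between -0.81 (mRNAs of mitochondrial DNA) and 0.48 (transcription factors), beside -0.058 for all genes tested. Without the factors they lay between -1.42 and -0.13 for the same lists. The medians of transcription factors, upkeep of mitochondrial DNA and mitochondrial transcription then turned from above to below 0.

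With 7c, 0 members passed the threshold in liver, where 0.00666% of genes did (3.76% at an unadjusted p under 0.05, and 0.719% with groups that did not overlap). In each of the 9 members tested the 7c and vehicle livers overlapped, and the edgeR adjusted p was 1.00 for all 9. At an unadjusted p under 0.05, 0 members were called, and DESeq2, limma-voom and the likelihood ratio test also called 0.

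Of the coactivators, Ppargc1a had 5.64, 4.24, 8.37, 5.01, 8.01 and 5.49 CPM in the 6 7c livers and 5.08, 8.31, 6.195 and 6.14 CPM in the 4 vehicle livers. The 2 groups covered nearly the same range, with a log2 fold change of -0.070 (95% confidence interval -0.55 to 0.41). Ppargc1b had the largest log2 fold change among the 9 members tested in liver. It had 2.23, 2.86, 2.46, 4.03, 5.67 and 4.66 CPM with 7c and 1.22, 2.35, 2.96 and 3.45 CPM with vehicle. The 3 highest 7c livers (replicates 4, 5 and 6) were above every vehicle liver and the other 3 were within their range. The log2 fold change of 0.55 had an interval of -0.19 to 1.28, and it was 0.32 without vehicle replicate 1 and 0.74 without vehicle replicate 4. Its lowest value over all alternative fits was 0.27.

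Nrf1, a factor for many nuclear respiratory genes, had 8.85, 9.74, 12.8, 7.93, 9.78 and 6.93 CPM with 7c and 12.005, 9.57, 11.5 and 14.97 CPM with vehicle. Its 3 lowest livers were all from 7c mice, and the other 3 lay within the vehicle range. The log2 fold change was -0.36 (interval -0.75 to 0.023, unadjusted p = 0.0630 from edgeR). Gabpa had 40.1, 38.8, 39.0, 39.5, 36.1 and 34.8 CPM with 7c and 41.1, 39.1, 42.4 and 49.5 CPM with vehicle, and only 2 of the 6 7c livers reached the lowest vehicle liver. Its log2 fold change was -0.18 (interval -0.38 to 0.023, unadjusted p = 0.0776 from edgeR). For both genes the direction held in every alternative fit, with a lowest adjusted p of 0.641 for Nrf1 and 0.644 for Gabpa, and both were smallest without vehicle replicate 4 (-0.24 and -0.10).

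Tfam, Tfb2m and Polg, which act on the mitochondrial DNA itself, lay close to their vehicle values in liver. The 7c livers had 50.7 ± 2.19 CPM of Tfam (SD, n = 6), the vehicle livers 48.2 ± 2.33 CPM (SD, n = 4), and its interval for the log2 fold change ran from -0.097 to 0.25, the narrowest of the members. The log2 fold changes of Tfb2m and Polg were -0.043 (interval -0.29 to 0.20) and -0.0079 (interval -0.26 to 0.25). Esrra was at -0.050 (interval -0.38 to 0.28), and Ucp2 at 0.20 (interval -0.15 to 0.54), from 21.2 ± 3.43 CPM in 7c livers beside 18.5 ± 4.36 CPM in vehicle livers.

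Perm1 did not pass the filter in liver. Its counts in the 7c livers were 9, 4, 2, 10, 0 and 162, and in the vehicle livers 6, 6, 0 and 0. The count of 162 belonged to 7c replicate 6, the liver with skeletal muscle transcripts, and was the only value above 10 in the tissue. The part of these transcripts in the Perm1 value was not tested.

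**Figure D2:**
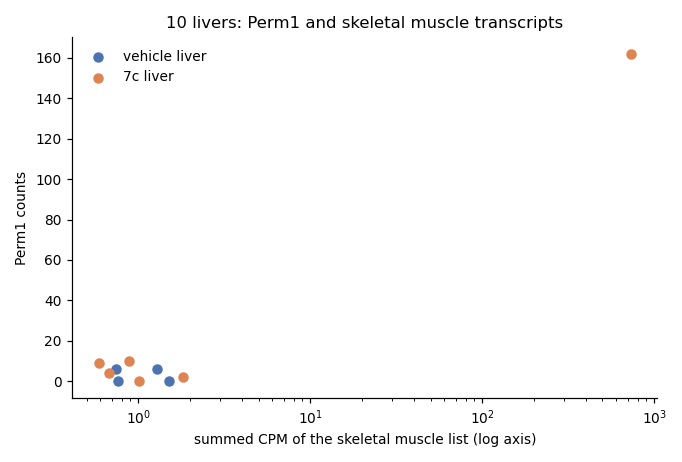
Perm1 counts of the 10 livers against the summed CPM of 8 skeletal muscle transcripts, on a log axis, with 7c livers in orange and vehicle livers in blue. The liver of 7c replicate 6 sits alone at 162 counts and 731 CPM, and the other livers have at most 10 counts.

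In kidney, 0 of 10 members passed the threshold, and 0 genes of 17749 did (0%; 2.61% at an unadjusted p under 0.05, 0.716% with groups that did not overlap). The 7c and vehicle kidneys overlapped for every member, with an edgeR adjusted p of 0.997 each. At an unadjusted p under 0.05 the count of members was 0, and DESeq2, limma-voom and the likelihood ratio test called 0.

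Ucp2 had 119, 140, 81.6, 200, 227 and 113 CPM in the 6 7c kidneys and 90.7, 160, 81.6 and 120 CPM in the 4 vehicle kidneys. Only 7c replicates 4 and 5 were above the vehicle range. The log2 fold change was 0.37 (interval -0.23 to 0.98). Ppargc1b showed the same 2 kidneys at the top, with 6.69, 5.85, 4.81, 11.03, 10.6 and 6.96 CPM with 7c against 6.33, 6.77, 6.29 and 5.97 CPM with vehicle (log2 fold change 0.27, interval -0.23 to 0.77). The spread of Ppargc1b was 33.4% of the mean in 7c kidneys and 5.17% in vehicle kidneys. Both of these kidneys, together with 7c replicate 1, held the Ucp1 transcripts of brown fat. With these 3 kidneys left out, an alternative chosen after the data were seen, the log2 fold change was -0.014 for Ucp2 and -0.10 for Ppargc1b. Since these kidneys include the highest 2 of both genes, the values had to fall. The kidney of 7c replicate 1, which also held Ucp1 transcripts, had 119 CPM of Ucp2, within the vehicle range, and the part of fat tissue was not tested.

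Tfb2m had 24.2, 23.5, 34.8, 22.2, 18.3 and 29.9 CPM in the 7c kidneys and 33.7, 23.2, 36.04 and 28.4 CPM in the vehicle kidneys, a log2 fold change of -0.25 (interval -0.65 to 0.14). It was -0.037 without the 3 kidneys. Gabpa had 25.9, 26.6, 36.1, 18.5, 16.4 and 30.7 CPM with 7c and 32.1, 22.03, 33.8 and 25.1 CPM with vehicle (log2 fold change -0.14, interval -0.60 to 0.33). The lowest 2 values of Gabpa and of Tfb2m were again from 7c replicates 4 and 5, and without the 3 kidneys Gabpa was at 0.15.

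Ppargc1a had 30.8, 31.9, 44.1, 32.9, 35.1 and 52.8 CPM in 7c kidneys and 47.6, 39.8, 48.4 and 36.1 CPM in vehicle kidneys. Although 4 of the 6 7c kidneys were below every vehicle kidney, 7c replicate 6 was the highest of all 10, and the log2 fold change was -0.18 (interval -0.54 to 0.18). Without the 3 kidneys it was 0.00655. Polg was at -0.10 (interval -0.46 to 0.25) and turned to 0.056 without them.

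The other members moved little. Nrf1 was at 0.11 (interval -0.15 to 0.37), Perm1 at 0.11 (interval -0.31 to 0.53), Tfam at 0.099 (interval -0.13 to 0.33) and Esrra at 0.060 (interval -0.24 to 0.36). Esrra, the most abundant member per length in kidney, averaged 132 ± 20.4 CPM in 7c kidneys (SD, n = 6) beside 126 ± 18.7 CPM in vehicle kidneys (SD, n = 4).

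**Figure D3:**
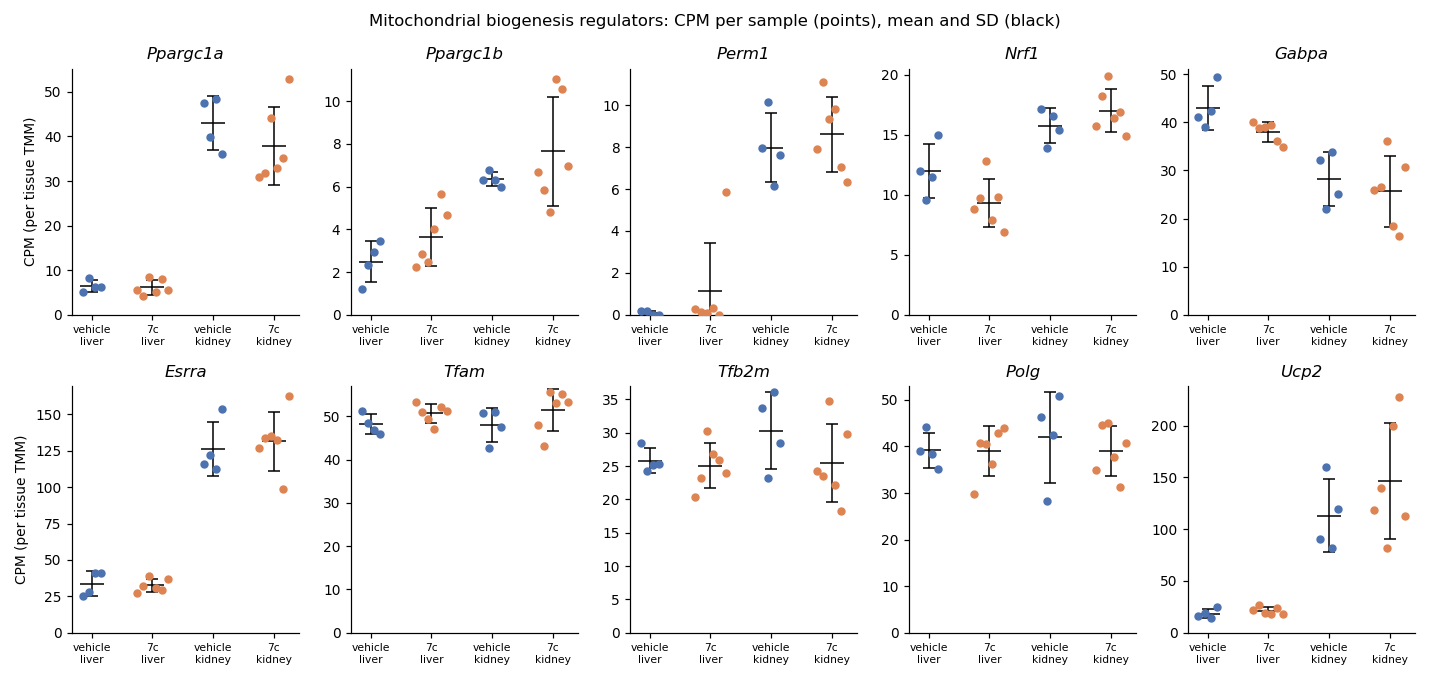
CPM of the 10 members in each library (points, vehicle in blue and 7c in orange), with the mean and SD of the group in black. Libraries were scaled within each tissue, so levels are to be compared within a tissue, where the points of 7c and vehicle overlap in every panel.

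**Figure D4:**
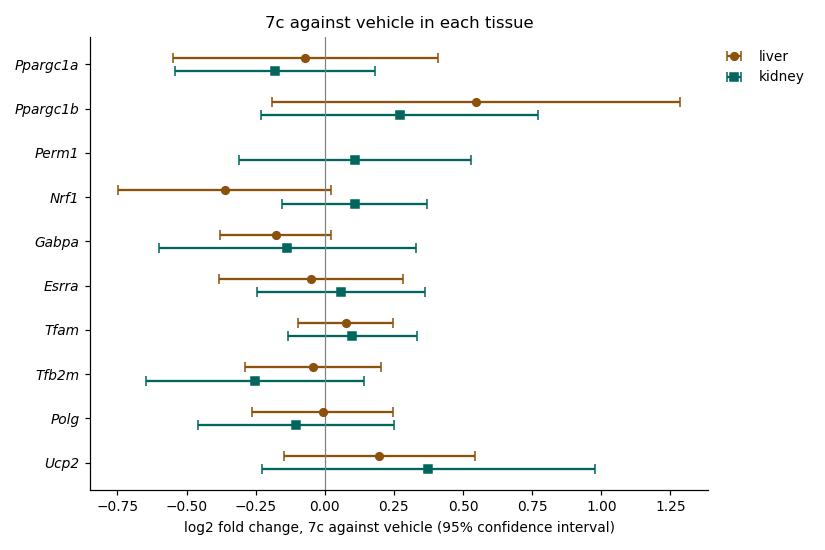
Log2 fold changes of 7c against vehicle with their 95% confidence intervals, in liver (circles) and kidney (squares). Every interval includes 0, the widest being that of Ppargc1b in liver (-0.19 to 1.28), and Perm1 was tested in kidney only.

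The response was then compared between the tissues by an interaction term, to ask whether 7c acted on a member differently in liver and kidney. Of the 9 members tested in both tissues, 0 were past the threshold (0.00706% of 14163 genes were). Nrf1 alone had an unadjusted p under 0.05 (2.49% of all genes had one). Its log2 fold change in liver minus that in kidney was -0.48 (interval -0.93 to -0.038, unadjusted p = 0.0347, adjusted p = 1.00 from edgeR), from -0.36 in liver and 0.11 in kidney. This fit did not pair the liver and kidney of the same treatment and number. Over the alternatives, which include a block on these pairs, the difference for Nrf1 lay between -0.55 and -0.35. For the other 8 members the difference lay between -0.19 (Ucp2) and 0.26 (Ppargc1b).

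The 89 listed genes of the pathway were read for 7c in the same fits. In liver 0 of 86 tested genes passed the threshold, and in kidney 0 of 87 did. At an unadjusted p under 0.05, 2 genes in liver (Lpin1, a coactivator of PPAR alpha and PGC-1 alpha, and Alas1, the first enzyme of heme synthesis) and 1 in kidney (Alas1) were higher with 7c. That is 2 of 86 and 1 of 87, below the 3.76% and 2.61% of all genes with such a p in either direction. The medians of the lists lay between -0.10 (upkeep of mitochondrial DNA) and 0.092 (nuclear targets) in liver, where the median of all genes was 0.0017. Of the 19 nuclear targets, 16 were above 0 in liver and 9 in kidney, beside 7563 of 15012 and 8695 of 17749 of all genes. In liver 3 of the 19 signs turned with library totals, where the median was 0.050. In kidney the 13 mRNAs of mitochondrial DNA were all below 0, from -0.53 to -0.17, with 0 past the threshold and a median of -0.26 beside -0.0057 for all genes.

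These mRNAs made up 4.40% ± 0.420 of the counts in 7c livers (SD, n = 6) and 4.61% ± 0.873 in vehicle livers (SD, n = 4). In kidney the share was 6.80% ± 1.90 with 7c and 8.13% ± 1.10 with vehicle. The 3 kidneys with Ucp1 transcripts had 6.65%, 5.85% and 3.90%, and 7c replicate 2 and vehicle replicate 2, without such transcripts, had 6.658% and 6.653%. The difference of -0.208 percentage points in liver was within the SD of both groups, and that of -1.33 in kidney was within the SD of 7c kidneys and above that of vehicle kidneys. Two-sided exact permutation tests over all 210 splits gave p = 0.629 in liver and 0.252 in kidney (adjusted 0.629 and 0.505), where the smallest possible p is 0.00476. Without the 3 kidneys with Ucp1 transcripts, the share was 8.14% ± 1.29 in the remaining 7c kidneys (SD, n = 3), a difference of 0.0035 percentage points from vehicle (exact permutation p = 0.971, smallest possible p 0.0286). These 3 kidneys had the 3 lowest shares of all kidneys and were left out after the data were seen, so the 7c mean had to rise. The part of fat tissue in the share was not tested.

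Across the 10 kidneys, Ucp2, Gabpa and Tfb2m varied together from mouse to mouse. The relations were computed on log2 CPM over all 10 kidneys, 7c and vehicle together, as 81 pairs of members in the 2 tissues, each with a permutation p from 100000 resamples. Ucp2 ran opposite to Gabpa (Pearson's r = -0.98, Spearman's rho = -0.96, adjusted permutation p = 0.000405 and 0.00243). Ucp2 also ran opposite to Tfb2m (r = -0.96, rho = -0.98, adjusted permutation p = 0.000405 and 0.00243), and Gabpa ran with Tfb2m (r = 0.93, rho = 0.94, adjusted permutation p = 0.000810 and 0.00513). Without the 2 kidneys farthest from the median of the first gene, r was -0.94 for Gabpa and Ucp2, -0.92 for Tfb2m and Ucp2 and 0.90 for Gabpa and Tfb2m. Within the 6 7c kidneys alone r was -0.98, -0.94 and 0.94, and over the 7 kidneys without Ucp1 transcripts it was -0.94, -0.98 and 0.90. No other pair of the 45 in kidney, and 0 of 36 in liver, had an adjusted p under 0.05. The share of all pairs of genes that are as closely related in these kidneys was not computed. The relations are therefore not shown to be particular to these members.

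The same kidneys differed in their overall RNA makeup. The share of mRNAs of mitochondrial DNA, between 3.90% and 9.04% of counts, ran with Tfb2m (r = 0.96, rho = 0.92, adjusted permutation p = 0.00165 and 0.00646 over 38 relations) and Gabpa (r = 0.93, rho = 0.85, adjusted permutation p = 0.00165 and 0.0203), and against Ucp2 (r = -0.92, rho = -0.84, adjusted permutation p = 0.00165 and 0.0233). Without the 2 kidneys farthest from the median share, r was 0.95, 0.87 and -0.86, and over the 7 kidneys without Ucp1 transcripts 0.93, 0.84 and -0.87. A second measure, the mean deviation of genes with at least 5000 exon bases minus that of genes with at most 1500, followed the same 3 members (r = 0.89 for Tfb2m, 0.88 for Gabpa and -0.89 for Ucp2, with rho of 0.95, 0.92 and -0.92 and adjusted permutation p of at most 0.00697). It also ran with Polg (r = 0.87, adjusted permutation p = 0.00934, rho = 0.73 with 0.0974), where r was 0.57 without the 2 outermost kidneys. Ppargc1a ran with the share of mRNAs of mitochondrial DNA by rho (0.82, adjusted permutation p = 0.0309) and not by r (0.75, adjusted permutation p = 0.0589). The part of RNA makeup in these relations was not tested. How many of all genes follow these 2 measures as closely was not counted either. In liver 0 of 18 such relations passed.

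**Figure D5:**
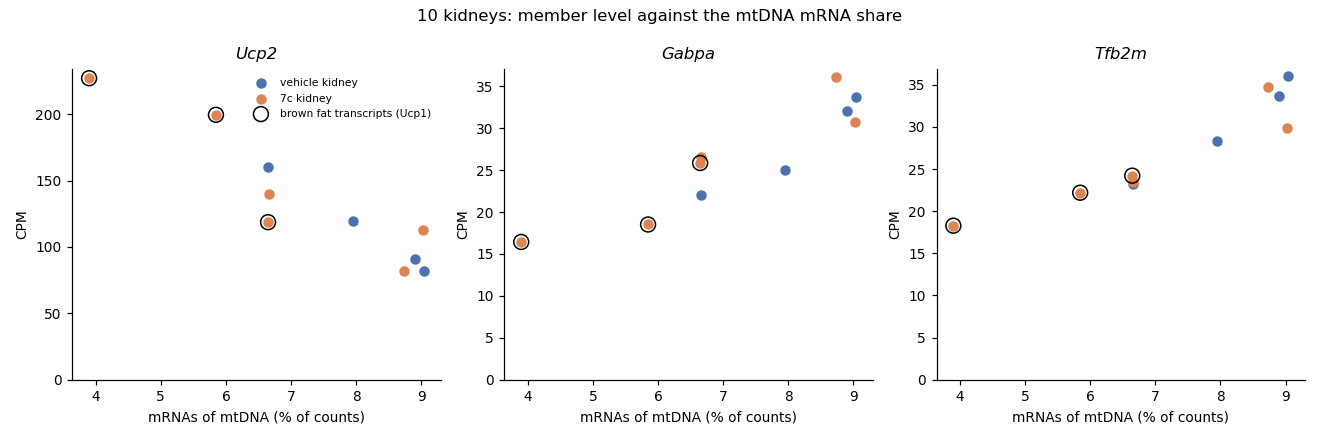
CPM of Ucp2, Gabpa and Tfb2m in each of the 10 kidneys against the percent of counts from mRNAs of mitochondrial DNA, with 7c in orange, vehicle in blue and a ring around the 3 kidneys with Ucp1 transcripts. The kidney with the lowest share (3.90%) has the most Ucp2 (227 CPM) and the least Gabpa (16.4 CPM) and Tfb2m (18.3 CPM), and all 3 genes follow the axis in both groups.

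For Ppargc1a, Perm1 and Ucp2, the genes with the most similar pattern were sought by Pearson's r of log2 CPM over the 20 libraries, each tissue centred on its mean, over 11743 genes (11744 for Perm1). Nearest to Ppargc1a were Fnip1 (r = 0.80), Rabgap1l (0.80) and Ldlrad3 (0.79), all at 0.67 or more within each tissue. Nearest to Ucp2 were Gm57852 (0.90), Phc2 (0.89) and Emc10 (0.89), with higher values within kidney (0.93, 0.98 and 0.93) than within liver (0.78, 0.49 and 0.75). Nearest to Perm1 were Gys1, Pygm and Tmem38a, known from the glycogen and calcium handling of muscle, at 0.84, 0.83 and 0.82. Within kidney their r with Perm1 was only 0.13, 0.094 and 0.051, and in liver the pattern includes 7c replicate 6 with its muscle transcripts.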

How the data were processed

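Poly(A) RNA of 10 livers and 10 kidneys was sequenced from TruSeq Stranded mRNA libraries. The deposited values are raw counts per Ensembl gene, made by the authors with STAR 2.7.11b on GRCm39 and featureCounts 2.0.6 per the labels, and the annotation release and strand setting are not given in the sources used here. Between 75.1% and 83.2% of the counts from 1 to 20 were even in each library, a pattern that counting both mates of a read pair would give. This was not tested, and the counts printed here and the filter may stand for fewer fragments than their size says. Exons of Esrra (29.6% of bases), Gabpa (23.7%), Ucp2 (14.9%), Polg (9.29%) and Tfb2m (9.25%) share bases with a gene on the opposite strand, whose reads could not be told apart if strand was not used. Symbols, positions and exon lengths came from GENCODE vM39, and 700 genes without a match held 0.0417% of counts.

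The filter kept genes that reached 10 counts in 50% or more of the compared libraries, and these were tested with edgeR 4.0.16 (R 4.3.3, TMM, quasi-likelihood F-test, Benjamini-Hochberg, threshold 0.05), separately per tissue with treatment as the only term. The interaction used all 20 libraries and genes that passed in both tissues. CPM used each tissue's TMM factors, and TPM the union of exons. Correlations used 100000 permutations, and the share of mRNAs of mitochondrial DNA an exact permutation test. Counts give the precision at this depth, and genes with few counts, such as Perm1 in liver, are given as counts.

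The members and lists were chosen with earlier results of these data known. All members are named in each comparison, and of the 7 pathway lists the genes past the threshold for 7c and the 2 largest per direction between tissues. Lpin1 and Alas1 were picked with their values in view. Of the genes this rule selects, 1 is not reported here. Alternatives were RLE factors, DESeq2 1.42.0, limma-voom (limma 3.58.1), the likelihood ratio test, no filter, filterByExpr, the replicate block, both tissues in 1 fit and leaving out each mouse. After seeing the data, counts divided by 2, library totals without factors and leaving out 3 kidneys with brown fat transcripts were added.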

Additional observations from a re-analysis of the deposited data

Results flagged for a closer look

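Perm1 in the liver of 7c replicate 6 stood apart from the other livers of its group, at 5.85 CPM (162 counts) against 0.339 CPM in the next highest and 0 CPM in the lowest 7c liver. The gap to the next liver took up 0.942 of the range of the group, above the 95% critical value of Dixon for a group of 6. The same rule was applied to 10 members in 4 groups, 40 tests in all, in which chance alone flags about 5% of groups, and this was the only value flagged. The library also had 731 CPM of skeletal muscle transcripts, and the part of muscle RNA in the Perm1 value was not tested.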

How the results depend on the processing

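The count of members past the threshold was 0 in liver, in kidney and for the interaction under every alternative. Between tissues it was 7 and ranged from 6 to 9, counting Perm1, which had to differ. The number of all genes called was less stable. In liver, 1 gene was called, but 6 with DESeq2, 7 with the likelihood ratio test, 4 with no filter, 2 with filterByExpr, 0 with the replicate block and 4 with both tissues in 1 fit. In kidney, 0 were called, but 18 with DESeq2, 2 with limma-voom, 14 with the likelihood ratio test, 3 with no filter, 18 with both tissues in 1 fit and 2 with counts divided by 2. For the interaction 1 was called, but 16 with DESeq2, 0 with limma-voom, 22 with the likelihood ratio test, 11 with no filter, 4 with filterByExpr and 0 with the replicate block. Leaving out 1 mouse gave 0 to 2 genes in liver (0 without vehicle replicate 4, 2 without 7c replicate 4 or vehicle replicate 2), 0 to 3 in kidney (3 without 7c replicate 5) and 0 to 6 for the interaction (6 without 7c replicate 6). The causes were not tested.

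Signs of small member effects turned. Without the 3 kidneys with brown fat transcripts, the kidney log2 fold changes became 0.00655 (Ppargc1a), -0.10 (Ppargc1b), 0.15 (Gabpa), 0.056 (Polg) and -0.014 (Ucp2), and the interaction became -0.064 (Ppargc1a), 0.0014 (Tfam), -0.050 (Polg) and 0.22 (Ucp2). With no filter Polg in liver became 0.0044. Leaving out 1 mouse, the liver values ranged from -0.18 to 0.079 for Ppargc1a, -0.17 to 0.059 for Esrra, -0.10 to 0.010 for Tfb2m and -0.056 to 0.060 for Polg. The kidney values ranged from -0.0096 to 0.17 for Esrra and -0.25 to 0.00034 for Polg. Without a change of sign, kidney Perm1 ranged from 0.0031 (without vehicle replicate 3) to 0.25 (without vehicle replicate 2), Gabpa from -0.26 (without 7c replicate 3) to -0.035 (without 7c replicate 5), Ucp2 from 0.21 (without 7c replicate 5) to 0.59 (without vehicle replicate 2), Ppargc1b from 0.14 to 0.37, Ppargc1a from -0.30 to -0.12 and Tfb2m from -0.36 to -0.16. Kidney Nrf1 ranged from 0.059 to 0.15 and kidney Tfam from 0.051 to 0.14. In liver, Gabpa ranged from -0.22 to -0.10 and Nrf1 from -0.47 to -0.24. Liver Ucp2 ranged from 0.10 (without vehicle replicate 3) to 0.36 (without vehicle replicate 4). The interaction ranged from -0.15 to 0.076 for Gabpa, -0.047 to 0.30 for Ppargc1a, -0.077 to 0.043 for Tfam, -0.20 to 0.038 for Esrra, -0.070 to 0.32 for Polg, 0.040 to 0.48 for Ppargc1b, -0.37 to -0.037 for Ucp2 and 0.095 to 0.30 for Tfb2m. Without the 3 kidneys it was 0.66 for Ppargc1b and 0.0084 for Tfb2m. The lowest interaction over all alternatives was -0.31 for Gabpa and -0.23 for Esrra. The difference in the share of mRNAs of mitochondrial DNA, -0.208 percentage points in liver, ranged from -0.571 to 0.139, and was above 0 only without vehicle replicate 1. In kidney it ranged from -1.83 to -0.753 when 1 mouse was left out, and was 0.0035 without the 3 kidneys with brown fat transcripts. These 3 kidneys had the 3 lowest shares, so the 7c mean had to rise.

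Between tissues, library totals without factors gave -0.37 for Nrf1, -0.22 for Tfb2m, -0.086 for Polg, 0.024 for Tfam and -1.30 for Ppargc1b. Ppargc1b was past the threshold with DESeq2 (-0.79), limma-voom (-0.78) and the likelihood ratio test (-0.72), and Tfb2m with limma-voom (0.41), the likelihood ratio test (0.40) and counts divided by 2 (0.40). Polg lost its call with RLE factors (0.46).

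The block on replicate number took Polg between tissues to an adjusted p of 0.0531 and changed no other call of a member. Deviations of liver and kidney of the same number correlated at 0.0115 to 0.259 over 14163 genes, with 8 of 10 livers closest to the kidney of their own number. Over the 500 most variable genes they correlated at 0.214 to 0.481, with 10 of 10 closest. The labels do not say that a number marks 1 mouse, and the fit without the block was kept as planned. Low counts limit Perm1 in liver, whose vehicle counts do not exceed 6.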

Other observations

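Lpin1 and Alas1, chosen after their values were seen, were the pathway genes with an unadjusted p under 0.05 for 7c in liver, and neither passed the threshold. Alas1 had 26.7, 317, 163, 111, 193 and 247 CPM in the 6 7c livers and 122, 29.5, 32.6 and 41.0 CPM in the 4 vehicle livers (log2 fold change 1.65, unadjusted p = 0.0117, adjusted p = 1.00 from edgeR). The liver of 7c replicate 1 had the lowest Alas1 value of all 10, and all 4 vehicle livers lay within the range of the 7c livers. Lpin1 had 39.1, 32.5, 34.1, 65.7, 166 and 174 CPM with 7c and 40.3, 30.2, 34.7 and 38.2 CPM with vehicle (log2 fold change 1.25, unadjusted p = 0.0206, adjusted p = 1.00 from edgeR), with 7c replicates 4, 5 and 6 above every vehicle liver. The highest, 7c replicate 6, is the liver with 731 CPM of skeletal muscle transcripts, whose part in the Lpin1 value was not tested. Ppargc1b too was above every vehicle liver in 7c replicates 4, 5 and 6.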
